A study of Rattus norvegicus with 6 samples.

Results

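The nuclear-encoded subunits of mitochondrial oxidative phosphorylation, the respiratory chain and the ATP synthase, were compared between the livers of rats given o-anthranilic acid and rats given corn oil. Members were all non-control probes whose accession maps to a rat gene symbol that begins with Nduf, Uqcr, Cox4, Cox5, Cox6, Cox7, Cox8 or Atp5, or that is Sdha, Sdhb, Sdhc, Sdhd, Cyc1 or Cycs. This rule found 150 of the 61657 non-control probes, and they stood for 84 of the 15284 genes named on the array. It uses no measured value. By symbol it also takes in assembly factors of complex I (the Ndufaf genes), the ATP synthase inhibitor Atp5if1, the supercomplex factor Cox7a2l and the transcribed pseudogene Cox6c-ps1. Of 100 genes in a table of known members and their roles, 16 had no probe matched by accession and were not analysed here. Among these are cytochrome c1 (Cyc1), 2 subunits of the ATP synthase membrane sector (Atp5mf and Atp5mj), Atp5mc3 of its c ring, and the heart and muscle isoform Cox7a1. Subunits encoded by mitochondrial DNA fall outside the rule.

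The animals were male Sprague-Dawley rats bought at 5 weeks of age. Corn oil, the vehicle, was given to 3 rats, and the other 3 rats received 1000 mg/kg/day of o-anthranilic acid, an aromatic amino acid that forms when tryptophan is broken down. Neither group carried a genetic change, and all 6 were kept on the same basal diet. The labels give 9 weeks of dosing in one field and measurement at 28 days in another, so the length of dosing is uncertain. RNA of each whole liver sample was hybridised in one colour (Cy3) to its own Agilent array, and the replicates are different animals.

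Oxidative phosphorylation takes electrons from NADH at complex I and from succinate at complex II, passes them through ubiquinone to complex III, then through cytochrome c to complex IV, where oxygen is reduced. Complexes I, III and IV pump protons out of the mitochondrial matrix, and complex V, the ATP synthase, lets them back in to make ATP. Hepatocytes are rich in mitochondria and spend this ATP on glucose and urea synthesis and on the conjugation of foreign acids, and the transcripts of most subunits are abundant in liver.

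Array signals were comparable in depth of detection. The 75th percentile of the processed signal lay between 489 and 523 on the 6 arrays, 53.3% to 58.0% of probes were well above background, and no spot was saturated. One slide carried every corn oil array together with treated rats 1 and 2, and treated rat 3 was on another. The array of treated rat 3 had the lowest 75th percentile (489) and the lowest share of probes well above background (53.3%). On the shared slide the rows divided corn oil from treated arrays, and the effects of row and treatment cannot be told apart. All 8 hepatocyte markers listed, albumin (Alb) and transthyretin (Ttr) among them, were well enough detected to be tested, so the liver label holds. Their summed level was 11.72 to 11.76 in corn oil and 11.60 to 11.65 in anthranilic acid livers, on the log2 scale relative to the 75th percentile used throughout. The summed level of the 4 lymphocyte markers tested, of 6 listed, was -0.32 to -0.029 in corn oil and 0.38 to 0.53 in anthranilic acid livers. Cd3e and Ms4a1, which define T and B cells, were not among those tested. Neither list overlapped between the groups, nor did that of the muscle and fat markers given below. The summed levels of the macrophage, endothelial, stellate, cholangiocyte and erythroid markers overlapped. Members of a list differed in direction: 1 of the 8 hepatocyte markers and 3 of the 4 lymphocyte markers were higher in anthranilic acid. The part of cell makeup in the results below was not tested. In whole tissue, fewer cells of a type and less RNA per cell cannot be told apart.

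Promoters of the subunit genes are known as targets of NRF1, of ETS family factors such as GABP, and of YY1, so their start regions were searched for these motifs. RefSeq (GRCr8) start regions, from 250 bases before to 50 bases after the annotated start, were found for 74 of the 84 genes. The letters searched on both strands were GCGC, any base and then TGCGC for NRF1, CCGGAAG for ETS factors and AAGATGGC for YY1. An NRF1 match can lie on both strands at once, and the last 3 bases of an ETS match can be the first 3 of a YY1 match. At least 1 of the 3 motifs occurred in 40 of 74 regions (54.1%), against 28.1% of 8434 regions of tested genes and 15.5% of all 27457 in the RefSeq table. The YY1 letters were in 17.6% of the member regions and 5.3% of those of tested genes, the NRF1 letters in 18.9% and 9.58%, and the ETS letters in 29.7% and 17.5%. None of the 13 complex IV regions held the NRF1 letters, against 8 of 36 for complex I and 4 of 14 for complex V. The sequences below, the 250 bases before the start in 1 gene of each complex, show how these letters are placed. In each complex the gene with the most kinds of motif there was taken, with ties settled by symbol. Matches are in capitals and all else in lower case, 5′ to 3′ on the strand of the gene.
Ndufa1 (complex I, ETS match starting 171 bases before the start, GRCr8 chrX:121293556-121293805, minus strand): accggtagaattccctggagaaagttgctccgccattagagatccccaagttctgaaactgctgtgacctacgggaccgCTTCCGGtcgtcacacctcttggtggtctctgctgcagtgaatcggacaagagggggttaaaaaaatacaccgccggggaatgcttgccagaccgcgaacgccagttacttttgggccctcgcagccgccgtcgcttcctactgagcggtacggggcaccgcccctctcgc
Sdha (complex II, NRF1 matches starting 89 and 46 bases before the start, GRCr8 chr1:30764303-30764552, plus strand): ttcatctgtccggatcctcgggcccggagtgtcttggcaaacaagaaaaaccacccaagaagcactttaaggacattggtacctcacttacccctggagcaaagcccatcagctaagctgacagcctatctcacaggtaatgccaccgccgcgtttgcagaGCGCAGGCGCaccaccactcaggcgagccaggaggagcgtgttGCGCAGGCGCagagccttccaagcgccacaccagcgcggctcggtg
Uqcrc1 (complex III, NRF1 match starting 64 bases before the start, GRCr8 chr8:118467973-118468222, plus strand): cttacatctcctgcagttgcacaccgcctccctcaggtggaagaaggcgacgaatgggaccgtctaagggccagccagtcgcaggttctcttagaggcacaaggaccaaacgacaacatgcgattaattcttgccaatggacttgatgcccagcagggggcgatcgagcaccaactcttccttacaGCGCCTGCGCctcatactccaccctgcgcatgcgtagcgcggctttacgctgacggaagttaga
Cox5b (complex IV, ETS match starting 14 bases before the start, GRCr8 chr9:46417587-46417836, plus strand): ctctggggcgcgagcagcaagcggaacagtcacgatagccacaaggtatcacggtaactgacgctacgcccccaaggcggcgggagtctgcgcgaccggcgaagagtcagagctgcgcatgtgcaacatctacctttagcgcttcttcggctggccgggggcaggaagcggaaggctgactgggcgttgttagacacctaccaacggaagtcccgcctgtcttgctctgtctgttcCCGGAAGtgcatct
Atp5me (complex V, YY1 match starting 183, NRF1 match 76 and ETS match 11 bases before the start, GRCr8 chr14:1464610-1464859, plus strand): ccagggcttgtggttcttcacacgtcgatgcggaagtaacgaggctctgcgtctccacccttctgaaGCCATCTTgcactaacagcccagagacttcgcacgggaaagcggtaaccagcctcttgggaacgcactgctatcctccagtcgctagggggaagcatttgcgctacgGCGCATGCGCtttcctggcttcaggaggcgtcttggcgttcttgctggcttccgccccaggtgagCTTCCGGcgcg

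Genes whose region held any of the 3 motifs had a median difference of 0.051 (log2, anthranilic acid minus corn oil), and the rest 0.047. Matches are a description of these windows and not binding sites.

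Almost all subunit transcripts lay close to their corn oil level in treated liver. Of the 84 genes, 83 were tested, each through its brightest probe. The other was Cox8c, the testis isoform of complex IV subunit 8, whose 2 probes were too dim in both groups. All 83 representative probes were well above background on all 6 arrays, so none of these genes was tested through detection in only 1 group. Of all 144 member probes tested, 142 were well above background on all 6 arrays, and the other two are probes of Cox6a2. The differences ranged from -0.26 (Cox6b2) to 0.43 (Uqcrq) with a median of 0.048. With 1 array left out at a time this median ranged from 0.037 to 0.082. The standard error of a single gene's difference had a median of 0.088. The middle of the distribution was narrow, with quartiles at -0.00042 and 0.11. The 95% interval of 82 genes lay within a 1.5-fold change in either direction, and that of Uqcrq reached 1.09 (log2). No subunit gene passed a limma adjusted p of 0.05, and the smallest was 0.371. The same threshold was passed by 0 of 10257 tested genes (0%) and by 11 of 33428 tested probes (0.0329%), none of them a member. The called probes of Gfra1, Cdkn1a, Gsta3 and Mup4l4 were not the brightest of their genes, so the gene count leaves them out. At an unadjusted limma p under 0.05, 2 subunit genes were higher (Ndufb10 and Ndufv2) and 1 was lower (Ndufb8), against 5.47% and 6.15% of all tested genes. Without corn oil replicate 1 or 2 or anthranilic acid replicate 1 both of these counts were 0. Without anthranilic acid replicate 2 they were 0 and 1, without replicate 3 of that group 1 and 1, and without corn oil replicate 3 they were 3 and 0. Quantile normalization gave 0 higher and 2 lower.

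**Figure D1:**
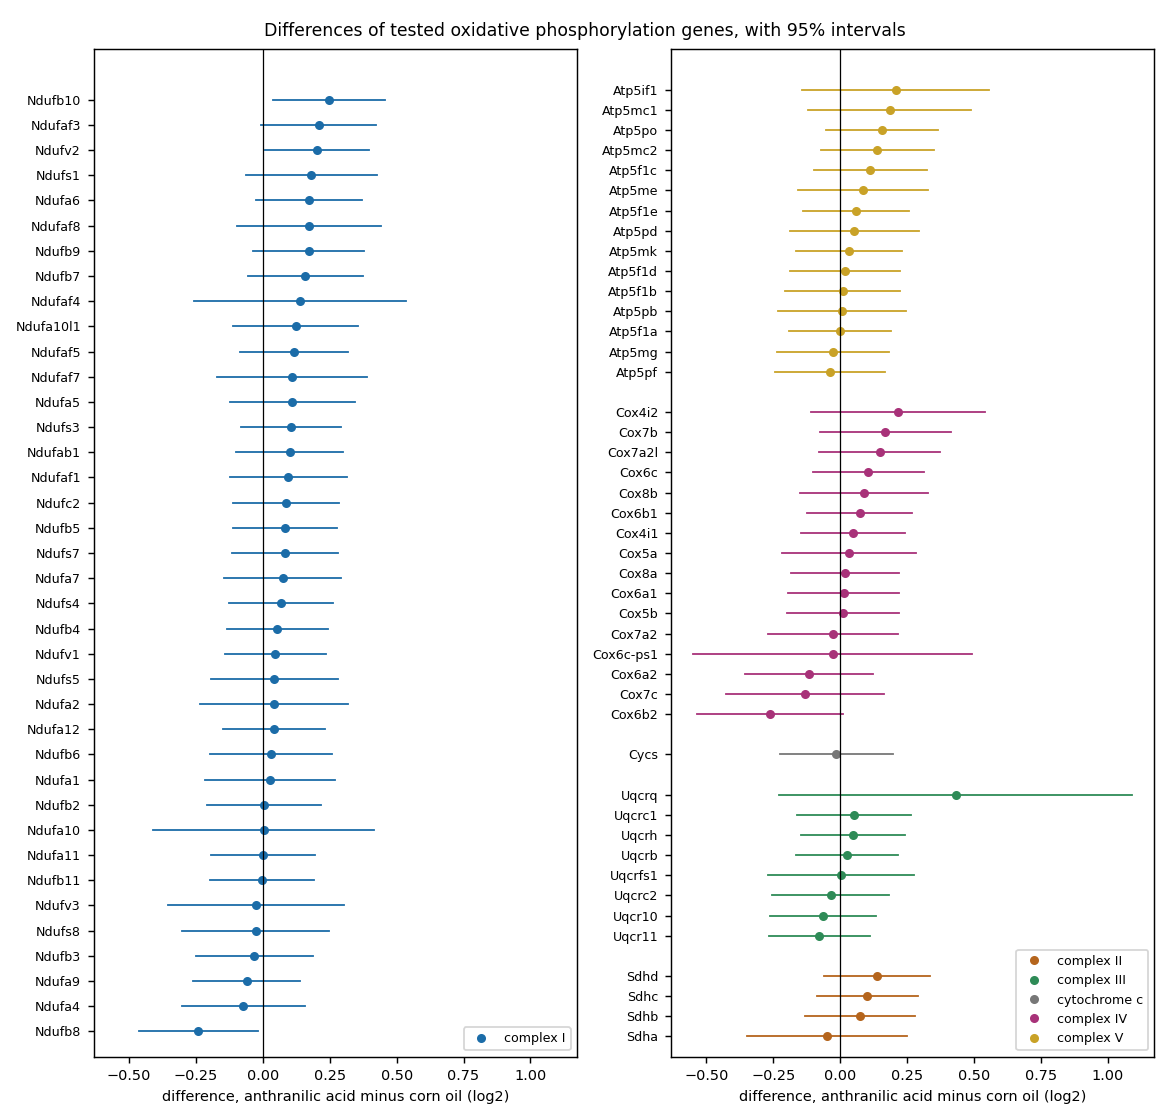
Difference of 82 of the 83 tested genes (log2, anthranilic acid minus corn oil, x axis), grouped by complex, with points for the limma estimate and bars for its 95% interval from 3 arrays per group. The intervals of Ndufb10 and Ndufv2 lie above 0 and that of Ndufb8 below it before adjustment, and Uqcrq has the widest interval.

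More subunit genes had a difference above 0 than below it. The count was 62 of 83, where 52% of all 10257 tested genes and 61.8% of the 2052 brightest tested genes were above 0. Most members are bright: 69 of the 83 are among those 2052, and their median difference was 0.047, against 0.043 for all 2052. The other 14 members had a median of 0.092, with 9 above 0. Treated and corn oil values did not overlap for 18 of the 83 members, 15 higher and 3 lower in anthranilic acid. Over all tested genes 19.8% did not overlap, 10.7% being higher and 9.12% lower. Among the 2052 brightest tested genes, 345 were higher and 140 lower without overlap. For the 69 members among them these counts were 13 and 2. The excess above 0 depended on the scaling between arrays. Quantile normalization left 39 of 83 (47.0%) above 0 with a median of -0.022, beside 49.1% and -0.0028 for the brightest tested genes. Over all tested genes 50.6% were above 0 under that setting. Scaling on detected probes alone left 52 (62.7%) with a median of 0.025, where 46.6% of all tested genes and 55.3% of the brightest were above 0. Median scaling over tested probes gave 64 (77.1%) and 0.062, where these shares were 54.8% and 65.2%. Without anthranilic acid replicate 1 the median was 0.082 with 69 above 0, and without replicate 2 it was 0.041 with 50 above 0.

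**Figure D2:**
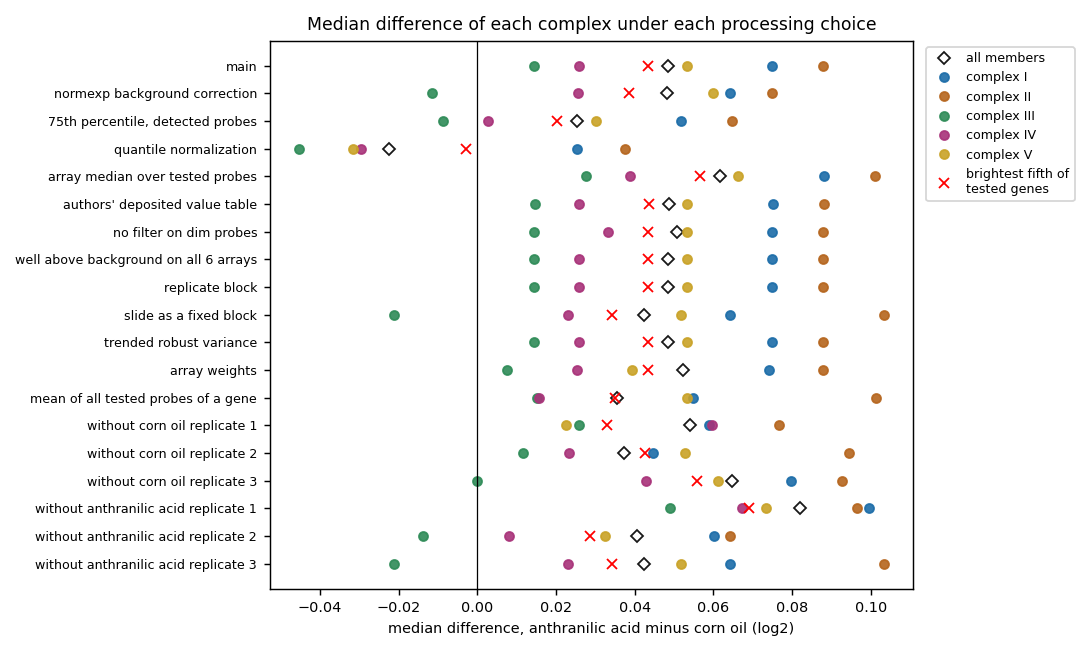
Median difference of each complex (log2, x axis) under the main setting and 18 alternatives (y axis), with diamonds for all members and crosses for the brightest tested genes. Quantile normalization is the setting that puts the member median below 0, at -0.022, and complex III changes sign under several settings.

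Complex I, NADH dehydrogenase, supplied 39 tested genes and most of those whose groups separated. Of these genes 31 were above 0, and the median was 0.075, or 0.045 without corn oil replicate 2. Without overlap 11 were higher and 1 was lower, where 10.7% and 9.12% of all tested genes were. Among the 2052 brightest tested genes, 345 were higher and 140 lower without overlap. The 39 include Ndufa4 and 6 assembly factors, 2 of these 6 being higher without overlap. No complex I gene passed the adjusted threshold.

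The 7 core subunits tested are the catalytic ones that carry flavin, iron-sulfur clusters or the quinone site. Ndufv2, an iron-sulfur subunit of the NADH-oxidising arm, measured 6.04, 6.05 and 6.15 in the corn oil livers and 6.24, 6.32 and 6.29 in the anthranilic acid livers. All 3 treated values lay above all 3 controls, with a difference of 0.20 ± 0.08 (SE, n = 3 per group), a 1.15-fold ratio and a limma adjusted p of 0.398. Ndufs1, the largest iron-sulfur subunit of that arm, measured 3.62, 3.64 and 3.47 in corn oil and 3.67, 3.71 and 3.89 in anthranilic acid. Its groups were also apart, by 0.18 ± 0.10 (SE, limma adjusted p = 0.495), although corn oil replicate 2 and anthranilic acid replicate 1 nearly met. Ndufv1, which binds the flavin, differed by 0.047 with overlapping groups. Of the subunits near the quinone site, Ndufs3 (0.10) and Ndufs7 (0.083) were higher without overlap, while Ndufs8 (-0.027) overlapped.

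Supernumerary subunits surround the core and help to assemble and stabilise it, and 25 were tested with a median difference of 0.043. Ndufb10, in the membrane arm, had the smallest p of the 83 genes. Its values were 5.55, 5.56 and 5.67 in corn oil and 5.88, 5.89 and 5.76 in anthranilic acid. The groups did not overlap, the difference was 0.25 ± 0.09 (SE, 95% interval 0.037 to 0.457, 1.19-fold), and the limma adjusted p was 0.371. Its 3 probes agreed, with differences from 0.18 to 0.29. Ndufb8, also in the membrane arm, stood on the other side. It measured 7.23, 7.20 and 7.26 in corn oil and 6.92, 7.12 and 6.92 in anthranilic acid. Every treated value was below every control, with a difference of -0.24 ± 0.09 (SE, 95% interval -0.46 to -0.020) and a limma adjusted p of 0.389. Ndufb8 had 1 probe matched by accession.

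Another 4 supernumerary genes separated upwards. Ndufa6, an LYR-motif subunit of the peripheral arm, measured 7.31, 7.25 and 7.27 in corn oil and 7.36, 7.50 and 7.48 in anthranilic acid, a difference of 0.17 (limma adjusted p = 0.448). Ndufb9, another LYR-motif subunit, measured 6.21, 6.11 and 6.11 against 6.24, 6.39 and 6.33, again 0.17 (limma adjusted p = 0.460). Ndufb7 differed by 0.16 and Ndufab1, the mitochondrial acyl carrier protein that LYR-motif subunits bind, by 0.10. For Ndufab1 the 3 probes ranged from -0.23 to 0.10, so its direction rests on the brightest probe. The remaining supernumerary genes overlapped between groups and lay between -0.060 (Ndufa9) and 0.12 (Ndufa10l1). Ndufa4, named for complex I but now counted with complex IV, differed by -0.074 with overlapping groups.

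All 6 assembly factors of complex I lay above 0, with a median of 0.13. Ndufaf3, which builds the quinone-binding module, measured 2.34, 2.38 and 2.49 in corn oil and 2.55, 2.59 and 2.70 in anthranilic acid. Its groups did not overlap and differed by 0.21 ± 0.09 (SE, limma adjusted p = 0.415), and its second probe gave 0.22. Ndufaf4, its partner in that module, measured 1.43, 1.25 and 1.61 against 1.65, 1.28 and 1.78. Its groups overlapped, and of its 4 probes 1 was above 0. Ndufaf5, an arginine hydroxylase that acts on Ndufs7, was higher without overlap by 0.12. Ndufaf8, the partner of Ndufaf5, differed by 0.17, Ndufaf7, an arginine methyltransferase, by 0.11, and Ndufaf1 by 0.095, each with overlap.

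**Figure D3:**
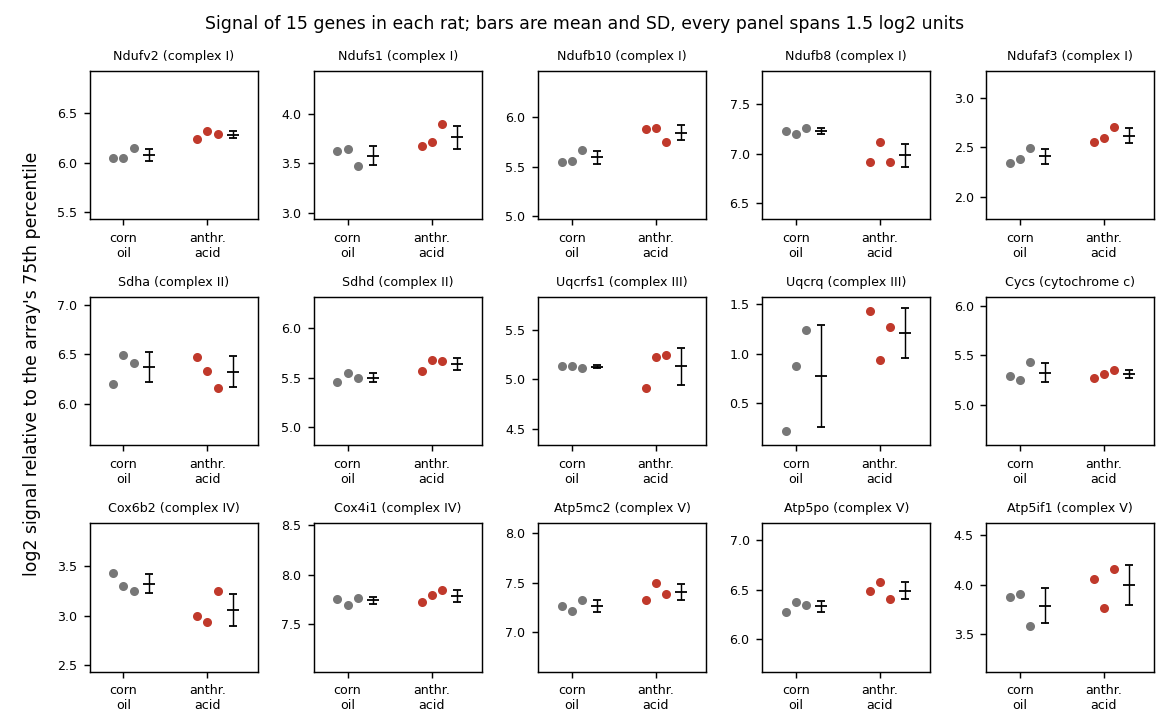
Signal in each rat for 15 of the genes described, as log2 relative to the 75th percentile of the array (y axis, each panel 1.5 log2 units high), with 3 corn oil rats in grey, 3 anthranilic acid rats in red, and the mean and SD of each group. Panels such as Ndufb10 and Ndufb8 show separate groups, whereas Sdha and Cycs overlap, and in Uqcrq the corn oil values run from 0.22 to 1.24.

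Complex II, succinate dehydrogenase, is the only complex whose 4 subunits are all nuclear-encoded, and all were tested. Its median difference was 0.088, and 3 of 4 genes were above 0. Sdha, the flavoprotein that oxidises succinate, measured 6.20, 6.50 and 6.41 in corn oil and 6.47, 6.34 and 6.16 in anthranilic acid. These values overlapped throughout, with a difference of -0.048 ± 0.12 (SE). Sdhb, the iron-sulfur subunit, measured 4.75, 4.88 and 4.82 against 4.91, 4.95 and 4.82, and its groups overlapped in anthranilic acid replicate 3. The membrane anchors, 2 of the 4 genes, were higher without overlap, as were 10.7% of all tested genes. Sdhd measured 5.46, 5.55 and 5.50 in corn oil and 5.57, 5.68 and 5.67 in anthranilic acid (difference 0.14 ± 0.08 SE, limma adjusted p = 0.520). Sdhc, its partner, measured 4.22, 4.16 and 4.21 against 4.25, 4.33 and 4.31 (difference 0.10, limma adjusted p = 0.612). In both, anthranilic acid replicate 1 was the treated value nearest to the controls.

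Complex III, the cytochrome bc1 complex, showed no common direction. Its 8 tested genes had a median difference of 0.014, with 5 above 0, and this median was just below 0 without corn oil replicate 3, -0.014 without anthranilic acid replicate 2 and -0.021 without anthranilic acid replicate 3. Uqcrfs1, the Rieske iron-sulfur protein, measured 5.13, 5.14 and 5.11 in corn oil and 4.92, 5.23 and 5.25 in anthranilic acid. Anthranilic acid replicate 1 lay below all controls and the other two treated values above them, which left a difference of 0.0034 ± 0.11 (SE). The core proteins Uqcrc1 and Uqcrc2, relatives of a processing peptidase, differed by 0.053 and -0.036 with overlap. Among the small subunits, Uqcr11 measured 6.38, 6.36 and 6.43 in corn oil and 6.33, 6.26 and 6.34 in anthranilic acid, lower without overlap by a small step (difference -0.078 ± 0.08 SE, limma adjusted p = 0.702). Uqcr10 (-0.063), Uqcrb (0.025) and the hinge protein Uqcrh (0.048) overlapped.

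Uqcrq, a supernumerary subunit of complex III, had the largest difference and the largest error of the members tested. Its second probe, well above background on 1 treated array only, was not tested. It measured 0.22, 0.88 and 1.24 in corn oil and 1.43, 0.94 and 1.27 in anthranilic acid. The groups overlapped, and corn oil replicate 1 stood apart at the low end. The difference was 0.43 ± 0.27 (SE, limma adjusted p = 0.542), it was 0.15 without corn oil replicate 1, and it was 0.66 without corn oil replicate 3. Cycs, somatic cytochrome c and the mobile carrier between complexes III and IV, measured 5.30, 5.25 and 5.43 in corn oil and 5.27, 5.31 and 5.35 in anthranilic acid. The treated values lay inside the control range, with a difference of -0.014 ± 0.09 (SE, 95% interval -0.23 to 0.20), and its 5 probes ranged from -0.062 to 0.030.

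Complex IV, cytochrome c oxidase, had 16 tested genes with a median difference of 0.026, of which 11 were above 0. None were higher and 1 was lower without overlap, where 10.7% and 9.12% of all tested genes were. The median was 0.060 without corn oil replicate 1, 0.043 without corn oil replicate 3, 0.067 without anthranilic acid replicate 1 and 0.00815 without anthranilic acid replicate 2. Several of its subunits come as tissue isoforms. The widespread or liver forms were all close to 0: Cox4i1 differed by 0.047, Cox6a1 by 0.013, Cox6b1 by 0.072, Cox7a2 by -0.028 and Cox8a by 0.018. Cox4i1, a regulatory subunit, measured 7.76, 7.70 and 7.77 in corn oil and 7.73, 7.79 and 7.84 in anthranilic acid. These groups overlapped, and the 95% interval of the difference ran from -0.15 to 0.24. Of the subunits without a listed tissue isoform, Cox7b (0.17), Cox6c (0.11), Cox5a (0.033) and Cox5b (0.0098) were above 0 with overlap. Cox7c differed by -0.13, with anthranilic acid replicate 3 lowest at 1.99 and the other five livers between 2.26 and 2.42. Cox7a2l, which joins complexes III and IV into supercomplexes, differed by 0.15 ± 0.09 (SE, limma adjusted p = 0.541).

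The 4 tested isoforms of complex IV known from other tissues ranged from -0.26 to 0.22. The 5 widespread or liver forms ranged from -0.028 to 0.072, and the 5 subunits without a listed tissue isoform from -0.13 to 0.17. Median standard errors were 0.11, 0.084 and 0.10 in that order. Cox6b2, the testis form of subunit 6b, measured 3.43, 3.29 and 3.25 in corn oil and 3.00, 2.94 and 3.24 in anthranilic acid. All treated values were lower, with anthranilic acid replicate 3 just under the lowest control. The difference was -0.26 ± 0.11 (SE, limma adjusted p = 0.419) and was -0.35 without that array. A second Cox6b2 probe, well above background on 2 of 3 arrays in each group, was not tested. Its means were -4.30 in corn oil and -3.99 in anthranilic acid. Cox6a2, the heart and muscle form of subunit 6a, differed by -0.12 at its brightest probe, with overlap and a limma adjusted p of 0.647. A second Cox6a2 probe was well above background on all 3 corn oil arrays and on no treated array, so only a bound can be given there. It was at least 1.25-fold lower in anthranilic acid (limma adjusted p = 0.212). The third Cox6a2 probe measured -3.84, -4.18 and -3.46 in corn oil and -4.45, -4.27 and -4.86 in anthranilic acid, where 1 of the 3 arrays was well above background, so the size of its difference is uncertain. Both of these probes passed the filter only through corn oil, where they are brighter, and are given as a description. Beside this, the summed level of the 3 muscle and fat markers tested, of 6 listed, was -0.53 to -0.19 in corn oil and -0.80 to -0.72 in anthranilic acid. Acta1, Adipoq and Plin1 were not among those tested, and the part of such tissue in the Cox6a2 values was not tested. Cox4i2, the lung form of subunit 4, measured 2.10, 1.76 and 2.08 against 2.15, 2.36 and 2.07. Its groups overlapped (difference 0.22), and its second probe gave -0.22, so no direction can be read for the gene. Cox8b, the heart and muscle form of subunit 8, differed by 0.090 with overlap. Its second probe, also well above background on 2 of 3 arrays in each group, was not tested.

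Complex V, the ATP synthase, had 15 tested genes with a median difference of 0.053, of which 12 were above 0. Higher without overlap were 2 of them, and 10.7% of all tested genes. Without corn oil replicate 1 the median was 0.022, and without anthranilic acid replicate 2 it was 0.032. The catalytic F1 head was nearly flat. Atp5f1a, its alpha subunit, measured 8.04, 8.02 and 8.07 in corn oil and 7.98, 8.08 and 8.07 in anthranilic acid. The groups overlapped with a difference of -0.0016 ± 0.08 (SE, 95% interval -0.19 to 0.19). Atp5f1b, the catalytic beta subunit, differed by 0.0090, and the stalk subunits Atp5f1c, Atp5f1d and Atp5f1e by 0.11, 0.017 and 0.059, all with overlap.

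Both tested genes of the proton-carrying c ring were above 0. Atp5mc2 measured 7.26, 7.21 and 7.33 in corn oil and 7.33, 7.50 and 7.39 in anthranilic acid. Its groups did not overlap but met at 7.33, the difference was 0.14 ± 0.09 (SE, limma adjusted p = 0.541), and its 3 probes gave 0.14 to 0.27. Atp5mc1, which encodes the same mature c subunit behind another import signal, differed by 0.18 ± 0.13 (SE) with overlap, and its second probe gave 0.20. In the peripheral stalk that holds the head still, Atp5po, the subunit that confers oligomycin sensitivity, measured 6.27, 6.38 and 6.35 against 6.49, 6.58 and 6.41. These groups were apart by 0.16 ± 0.09 (SE, limma adjusted p = 0.497). The other stalk subunits Atp5pb (0.0068), Atp5pd (0.053) and Atp5pf (-0.038) overlapped, as did the membrane subunits Atp5me (0.086), Atp5mg (-0.025) and Atp5mk (0.033). Atp5if1, the inhibitor that blocks ATP hydrolysis when the membrane potential falls, measured 3.88, 3.91 and 3.58 in corn oil and 4.06, 3.77 and 4.16 in anthranilic acid. Anthranilic acid replicate 2 lay among the controls and the other two treated livers above them, with a difference of 0.21 ± 0.14 (SE, limma adjusted p = 0.576).

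To compare the arrays, each gene was set against its own mean over the 6 arrays, and the median of these deviations over the 83 genes was -0.034, -0.035 and -0.0064 on corn oil arrays 1 to 3 and -0.026, 0.065 and 0.044 on anthranilic acid arrays 1 to 3. Anthranilic acid replicate 1 thus lay inside the corn oil range and the other two treated rats above it. Anthranilic acid replicate 2 was the highest array for 37 of the 83 genes (44.6%), against 18.8% of all tested genes, and was highest for 19 of 39 genes of complex I, 3 of 4 of complex II and 7 of 15 of complex V. The 2052 brightest tested genes had medians of -0.041, -0.025 and -0.0018 on the corn oil arrays and -0.020, 0.040 and 0.045 on the treated arrays. Among the complexes, II spread most across control rats, from -0.11 on corn oil array 1 to 0.00077 on array 2. Complex III moved least, within -0.027 to 0.033 over the 6 arrays.

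**Figure D4:**
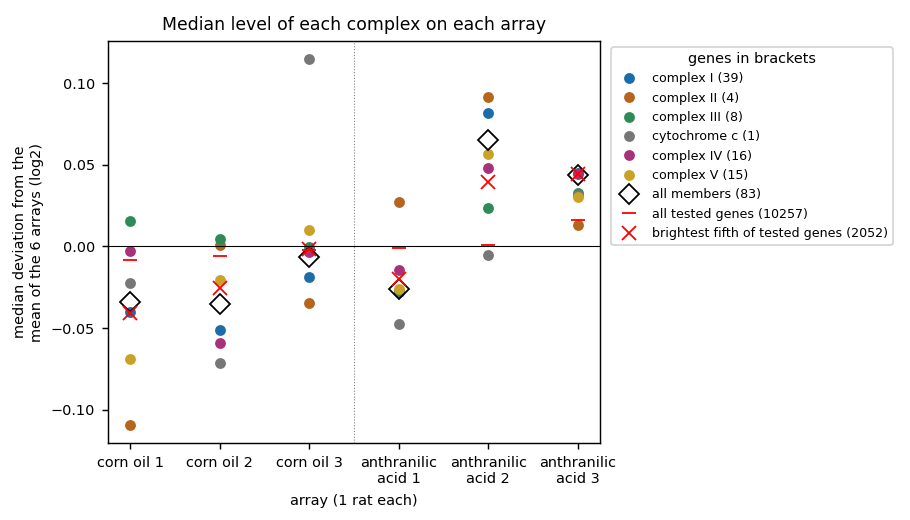
Median deviation of the genes of each complex from their own mean over the 6 arrays (log2, y axis) on each array (x axis, 1 rat each), with diamonds for all 83 members and crosses for the 2052 brightest tested genes. Diamonds lie at 0.065 and 0.044 on anthranilic acid arrays 2 and 3 and at -0.026 on array 1, inside the corn oil range.

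Probe agreement bounds how far a single gene can be read. Of 40 member genes with 2 or more tested probes, 30 had all probes on one side of 0, and the median distance between the highest and lowest probe was 0.050. The distance exceeded 0.2 for 6 genes, and it was widest for Cox6a2 (0.58), Cox4i2 (0.43) and Ndufc2 (0.40). Cox6a2 enters these counts only through its probes that passed the filter by corn oil alone. Those probes are also among the 144 tested member probes. Ndufc2, a membrane-arm subunit of complex I, gave 0.087 at its brightest probe and -0.32 at the other. Over all 144 tested member probes, 100 were above 0 with a median of 0.039, where 50.1% of all tested probes were above 0. Members of one complex share the array and the rat, so these counts are not replicates of the treatment.

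Genes that build or feed the chain were read from lists kept apart from the rule, and none of their members passed the adjusted threshold. The mitochondrial ribosome translates the subunits encoded in mitochondrial DNA, and its 66 tested genes, all Mrpl and Mrps symbols, had the highest median of the lists at 0.11. Of these 58 were above 0, 28 were higher without overlap (10.7% of all tested genes), none were lower without overlap (9.12%), and 8 were higher at an unadjusted limma p under 0.05 (5.47%). This count of 8 was 2, 4 and 3 without corn oil replicate 1, 2 or 3, it was 5, 4 and 3 without anthranilic acid replicate 1, 2 or 3, and it was 4 under quantile normalization. Mrps9, a small subunit protein, measured 2.04, 1.84 and 1.94 in corn oil and 2.28, 2.22 and 2.31 in anthranilic acid. The groups were clearly apart, by 0.33 ± 0.09 (SE, limma adjusted p = 0.293). Mrps27 differed by 0.34 (limma adjusted p = 0.319), also without overlap. Under quantile normalization 50 of the 66 genes were above 0, and the median was 0.074, whereas the median of the 83 subunit genes was -0.022.

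Of 34 tested assembly factors outside the symbol rule, 25 were above 0 with a median of 0.073, and 6 were higher and 1 lower without overlap, where 10.7% and 9.12% of all tested genes were. Uqcc2, needed to make cytochrome b of complex III, measured 3.30, 3.35 and 3.41 against 3.50, 3.58 and 3.69 and was apart by 0.24 (limma adjusted p = 0.387). Nubpl, which inserts iron-sulfur clusters into complex I, measured 1.53, 1.70 and 1.57 against 1.82, 1.80 and 1.81 and was apart by 0.21 (limma adjusted p = 0.397). Cox19, which handles copper for complex IV, was the one lower without overlap, at -0.20 (limma adjusted p = 0.427).

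Genes for mitochondrial DNA replication and transcription had no common direction, with 9 of 16 above 0 and a median of 0.0068, which was -0.019 without corn oil replicate 2 and 0.030 without corn oil replicate 1. Ssbp1, which coats single-stranded mitochondrial DNA, differed by 0.26 (limma adjusted p = 0.337) and Mterf2, a transcription regulator, by -0.40 (limma adjusted p = 0.387), both without overlap. Tfam, which packages mitochondrial DNA, differed by -0.029. Of 9 tested regulators of mitochondrial biogenesis 6 were above 0, with a median of 0.015 that ranged from 0.0034 without anthranilic acid replicate 3 to 0.037 without anthranilic acid replicate 2. Ppargc1b, a coactivator of respiratory genes, measured -0.43, -0.72 and -0.25 in corn oil and -0.67, -1.40 and -0.95 in anthranilic acid. Its groups overlapped at one value, with a difference of -0.53 (limma adjusted p = 0.401). Among the factors whose letters were searched above, Nrf1 differed by 0.015 and Yy1 by 0.0074, both with overlap. Gabpa differed by 0.12 with overlap, and Gabpb1 by 0.27 (limma adjusted p = 0.419) without overlap.

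Upstream of the chain, 11 of 17 genes of the Krebs cycle list were above 0 with a median of 0.029. The median was 0.015 without corn oil replicate 3 and 0.073 without anthranilic acid replicate 1. This list also holds Pdha1, Pdhb and Dlat of pyruvate dehydrogenase, which feeds the cycle. Of the 17 genes 4 were higher and 2 lower without overlap, where 10.7% and 9.12% of all tested genes were. Among the higher, Mdh2, malate dehydrogenase, and Suclg2, a succinyl-CoA ligase subunit, differed by 0.18 and 0.19 (limma adjusted p = 0.439 and 0.467). The lower ones were Ogdh (-0.14) and Suclg1 (-0.14). Other genes that feed or make ubiquinone split evenly, 7 of 14 above 0 with a median of -0.012, which was 0.019 without corn oil replicate 1. Chdh, choline dehydrogenase, measured 5.34, 5.26 and 5.27 in corn oil and 5.82, 5.49 and 5.69 in anthranilic acid. Its groups were apart by 0.38 ± 0.11 (SE, limma adjusted p = 0.308), while Gpd2, mitochondrial glycerol phosphate dehydrogenase, differed by -0.53 with overlap (limma adjusted p = 0.412). Of 12 carriers and channels 7 were above 0 with a median of 0.050, but without anthranilic acid replicate 3 the median was -0.025 with 5 above 0, and without replicate 1 of that group it was 0.088. Vdac1, the outer membrane channel, differed by 0.15 without overlap (limma adjusted p = 0.492), and Slc25a20, the carnitine carrier, by -0.22 with overlap (limma adjusted p = 0.491).

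**Figure D5:**
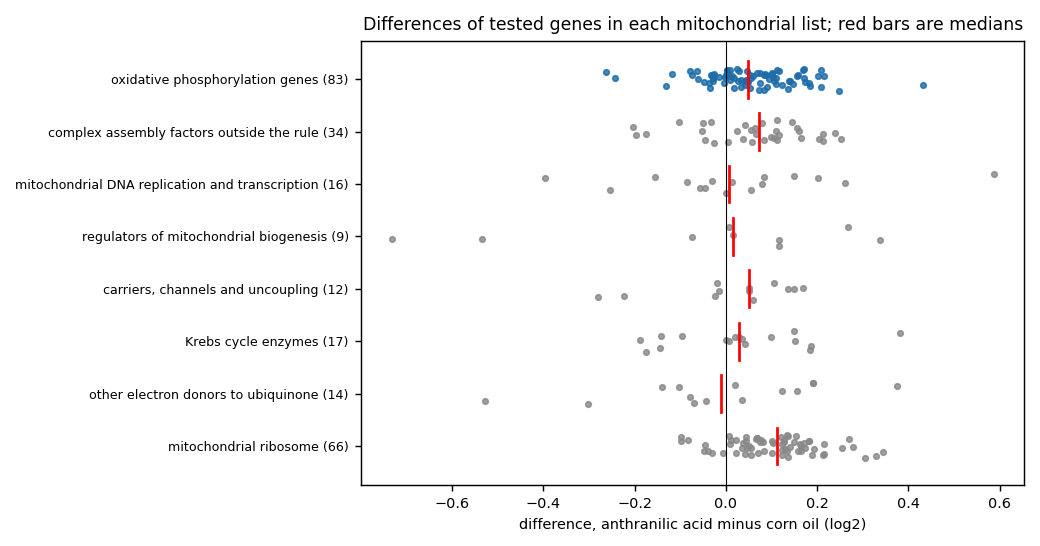
Difference of each tested gene (log2, anthranilic acid minus corn oil, x axis) in the 83 oxidative phosphorylation genes and in 7 other mitochondrial lists, with the number tested in brackets and red bars for medians. The subunit genes cluster around a median of 0.048, the mitochondrial ribosome around 0.11, and the regulators of biogenesis spread widest, from -0.73 to 0.34.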

How the data were processed

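Liver RNA of 6 rats, 3 per group, was measured on 1 single-colour Agilent array each. Per the file headers, Agilent Feature Extraction 10.7.1.1 (10.7 in the submitters' processing notes) gave the spot intensity, with background subtracted and spatial trends removed. Nothing in the deposited intensity files had been scaled across arrays. A table the authors deposited holds, for every probe, the ratio of this signal to a constant of its array that lay 0.0355% to 0.126% from the 75th percentile. Column medians there were 0.0887 to 0.0976. How the constant was obtained is not stated in these sources, and the table was used as an alternative.

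Processed signals were converted to log2 and centred on the 75th percentile of each array, taken over probes other than controls. Control spots were dropped, and so were 14 outlier spots, none of them in a member. Testing required that every array of 1 or both groups showed the probe well above background, with 2 or more unflagged spots in each group, and 33428 probes met this. Accessions without version were matched to the RefSeq gene table (GRCr8), and 27460 of 61657 probes (44.5%) received a symbol. The file headers name the rn4 build, so coordinates are given only for RefSeq start regions. The brightest tested probe, by mean signal, stood for its gene, so 10257 genes were compared, and levels were not compared between probes. Of the 84 member genes, 39 had 1 probe.

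Groups were compared over all tested probes by a two-sided limma test (version 3.58.1, R 4.3.3, lmFit then eBayes). Residual degrees of freedom were 4 and prior ones 2.3, with Benjamini-Hochberg adjustment and a threshold of 0.05. The fit was tested on simulated data. An exact permutation test of 3 against 3 rats could not reach 0.05, so none was used. Medians over genes carry no test.

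Members and lists were chosen with earlier results of these data known. Genes named by rule were all tested genes of complexes II and III and Cycs, the 3 with the smallest p in each direction in complexes I, IV and V, the isoform pairs of complex IV, Atp5if1, the 3 genes whose probes lay farthest apart, and the 2 with the smallest p in each other list. Other names serve to describe a group and were chosen with values known. The number of arrays limits the precision. A member gene is counted in the totals but not reported here by name.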

Additional observations from a re-analysis of the deposited data

How the results depend on the processing

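None of the 83 subunit genes passed the adjusted threshold under any of 18 alternatives. The 38 genes named by rule gave 684 values there, none below an adjusted p of 0.05 (limma), and 43 of these values, over 14 genes, had the other sign. The median of all subunit genes, 0.048, was -0.022 under quantile normalization, where complexes I to V had medians of 0.025, 0.037, -0.045, -0.030 and -0.031. The complex III median was -0.011 with normexp background correction and -0.021 with slide as a fixed block, which equals leaving out anthranilic acid replicate 3. With 1 array left out at a time it ranged from -0.021 to 0.049, and that of complex IV from 0.00815 to 0.067. Subunit genes higher at an unadjusted p under 0.05, 2 in the main analysis, numbered 5 with normexp and with a trended robust variance, 1 with the 75th percentile over detected probes, with no filter on dim probes and with the slide block, 0 under quantile normalization, and 0 to 3 with 1 array left out. Those lower, 1 in the main analysis, numbered 2 with normexp, detected-probe scaling, quantile normalization, trended variance, array weights and the mean of all probes of a gene, 0 without a filter, and 0 to 1 with 1 array left out. With the replicate number as a block both counts were 0, 2 mitochondrial ribosome genes were higher in place of 8, and 2 probes in all were called, against 11. The replicate numbers are not said to pair the rats. In deviations from the group means, same-numbered arrays correlated at 0.072, -0.051 and -0.043, and arrays with different numbers at -0.13 to 0.16. With 3 arrays per group these values cannot decide whether rats were paired. Probes called over the whole array numbered 50 with normexp, 45 with trended variance, 18 with array weights, 6 with the slide block, 2 without a filter, 2 with the filter on all 6 arrays, and 4 to 21 with 1 array left out. Among the other lists, quantile normalization gave medians of 0.074 for the mitochondrial ribosome, -0.019 for the Krebs cycle and -0.051 for ubiquinone-linked genes. Normexp gave 0.087 for the biogenesis regulators, and the mean of all probes 0.034 for mitochondrial DNA genes. With 1 array left out the Krebs cycle median ranged from 0.015 to 0.073, that of ubiquinone-linked genes from -0.031 to 0.019, that of mitochondrial DNA genes from -0.019 to 0.030 and that of the carriers from -0.025 to 0.088. The regulators had a median of -0.0079 with scaling on detected probes, and the carriers 0.0048 under quantile normalization. The causes of these shifts were not tested. List medians were added as results after seeing the data. Normexp used median spot signals, as the files hold no mean signal. Naming probes by the gene name column of the array design was not run, since the scanner files used here have no such column. Signal over background left Cox8c and 6 of the 150 member probes untested and leaves only a bound at 1 Cox6a2 probe, while the representative probes of the other 83 genes were above it on all 6 arrays.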
